A study of Macaca fascicularis and Macaca mulatta and Papio anubis with 20 samples.

Results

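The genes STMN2, TUBB3, THY1, SNCG, UCHL1 and RTN1, which are used as markers of neurons in general, were followed in spatial transcriptomes of primate dorsal root ganglia, the sensory ganglia beside the spinal cord. Members were found by gene symbol in each section's feature list. Of the 6 genes, 4 (STMN2, TUBB3, THY1 and SNCG) were listed by symbol among 22000 features in Macaca fascicularis, where UCHL1 and RTN1 had no named feature. In the sections labelled M. mulatta 5 were listed, without SNCG, and in those labelled P. anubis all 6 were listed.

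STMN2 encodes stathmin-2, a neuronal protein that binds tubulin and acts on microtubule growth in axons. TUBB3 encodes the beta-tubulin that marks neurons in tissue stains, and THY1 a glycolipid-anchored surface glycoprotein of the immunoglobulin superfamily. SNCG encodes gamma-synuclein, a synuclein abundant in peripheral sensory neurons that is also made by fat cells. UCHL1 encodes a ubiquitin hydrolase whose protein is a common stain for nerve fibres, and RTN1 a reticulon of the endoplasmic reticulum. Sensory neurons of the ganglion differ among themselves: large myelinated cells are rich in neurofilaments and include PVALB-expressing proprioceptors, whereas many small cells carry the sodium channels SCN10A and SCN11A.

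The 20 sections came from fresh frozen, commercially obtained ganglia, cut at 10 µm on arrays whose spots can each hold several cells. M. fascicularis was sampled in 4 title codes, taken here as 4 specimens with 4 sections each: a female and a male in batch 1, and another female and male in batch 2. The labels M. mulatta and P. anubis covered 2 sections each from a single title code, both in batch 2 and without a labelled sex. No age, spinal level or treatment was labelled. Sections of a specimen are not independent animals, so with a single specimen for each sex and batch the spread between animals of a group was not measured.

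M. fascicularis sections held between 1136433 and 7073134 unique molecular identifiers (UMIs, each standing for 1 captured transcript) under tissue. Totals were 190376 and 264661 for the label M. mulatta, and 595020 and 12595205 for the label P. anubis. One male section of batch 2 (section 3) had per-gene totals but no spot matrix here, which leaves 15 M. fascicularis sections for every spot-level value. Neuronal markers were present in the M. fascicularis sections, where 9 of 10 listed genes were matched and none was at 0. Their summed level was 13791 to 26743 CPM (UMIs of the genes per 1000000 UMIs under tissue) in the batch 1 female, 13792 to 24631 in the batch 1 male, 14705 to 23424 in the batch 2 female and 10874 to 15886 in the batch 2 male. In the sections labelled M. mulatta the list (8 of 10 matched, SNAP25 at 0 in section 1) reached only 5815 and 2875 CPM, while fibroblast markers stood at 14508 and 26883. Gene identifiers had the baboon prefix under the label M. mulatta and the rhesus prefix under the label P. anubis, so labels or references may be crossed between them.

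The first question was how high each gene stood in each specimen. All 4 named genes were abundant in every M. fascicularis section, and STMN2 had the fewest UMIs of the 4 in 16 of 16 sections. Over these sections SNCG averaged 4193 ± 835 CPM (SD, n = 16), THY1 4180 ± 638, TUBB3 3710 ± 630 and STMN2 2652 ± 546. The means of SNCG and THY1, and likewise of THY1 and TUBB3, lay within 1 SD of each other. Within sections the order of these genes varied, and the most frequent, SNCG above THY1 above TUBB3, was found in 7 of 16. UMIs count captured transcript ends and were not divided by gene length.

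STMN2 stood at 1798, 2695, 2773 and 2545 CPM in the 4 sections of the batch 1 female. In the batch 1 male it was 2855, 2617, 2701 and 2810. The batch 2 female gave 2921, 3696, 3395 and 3218, and the batch 2 male 2493, 2340, 1795 and 1784. The female and male of batch 2 therefore did not overlap for STMN2 (3308 ± 324 against 2103 ± 367, SD, n = 4 sections each), whereas those of batch 1 did. Of 11633 genes averaging at least 1 CPM in batch 2, 10.5% were likewise higher in every female section than in every male section. Summed neuronal markers averaged 12989 ± 2126 CPM in the batch 2 male and 19577 ± 3777 in the batch 2 female (SD, n = 4 sections), with ranges that overlapped. Adipocyte markers of the male did not overlap those of the female, at 3921 to 5929 CPM against 2257 to 2770. PLIN4 or ADIPOQ, defining genes of fat cells, was at 0 in each of these 8 sections. The part of these lists in the STMN2 difference was not tested, and fewer neurons in a section cannot be told apart from less RNA per neuron.

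TUBB3, the neuronal beta-tubulin, was 2687, 3254, 3501 and 3610 CPM in the batch 1 female and 2914, 3461, 3046 and 3493 in the batch 1 male. In batch 2 the female sections held 3860, 4906, 4507 and 4354, and the male sections 3581, 3752, 3751 and 4679. For TUBB3, 7 of the 8 batch 2 sections were above every batch 1 section, and the section at 3581 CPM lay inside the batch 1 range. A cutoff of at least 7 of the 8 matches these TUBB3 values and was not planned, so that TUBB3 meets it is not a result. Over all 11774 genes, 5.36% met the same cutoff. Markers of myelinating Schwann cells (8 of 9 matched, with only NCMAP at 0 in some sections) ran the other way, at 5856 ± 2449 CPM in the batch 1 female, 5423 ± 845 in the batch 1 male, 2109 ± 180 in the batch 2 female and 3145 ± 652 in the batch 2 male (SD, n = 4 sections). Their part in the TUBB3 levels was not tested.

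THY1 varied least, with a coefficient of variation of 15.3% over the 16 sections against 20.6% for STMN2. The batch 1 female gave 4369, 5423, 3603 and 3931 CPM and the male 4301, 5097, 3205 and 3614. In batch 2 the female gave 4782, 4460, 3937 and 4388 and the male 3481, 3933, 3504 and 4848. All 4 specimens overlapped for this surface glycoprotein.

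SNCG was 3360, 5540, 3140 and 3237 CPM in the batch 1 female, where section 2 stood apart from the other three. The batch 1 male gave 4342, 3792, 3274 and 3812. The batch 2 female gave 6131, 4037, 4622 and 4338, and the male 3834, 4206, 4479 and 4938. The specimens overlapped. SNCG is known in fat cells, and its correlation with summed adipocyte markers (PLIN1, PLIN4, ADIPOQ and others) is given as a description. Over spots the median correlation was -0.13, and it ranged from -0.41 to 0.19 over 15 sections. The part of fat cells in the SNCG levels was not tested.

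**Figure D1:**
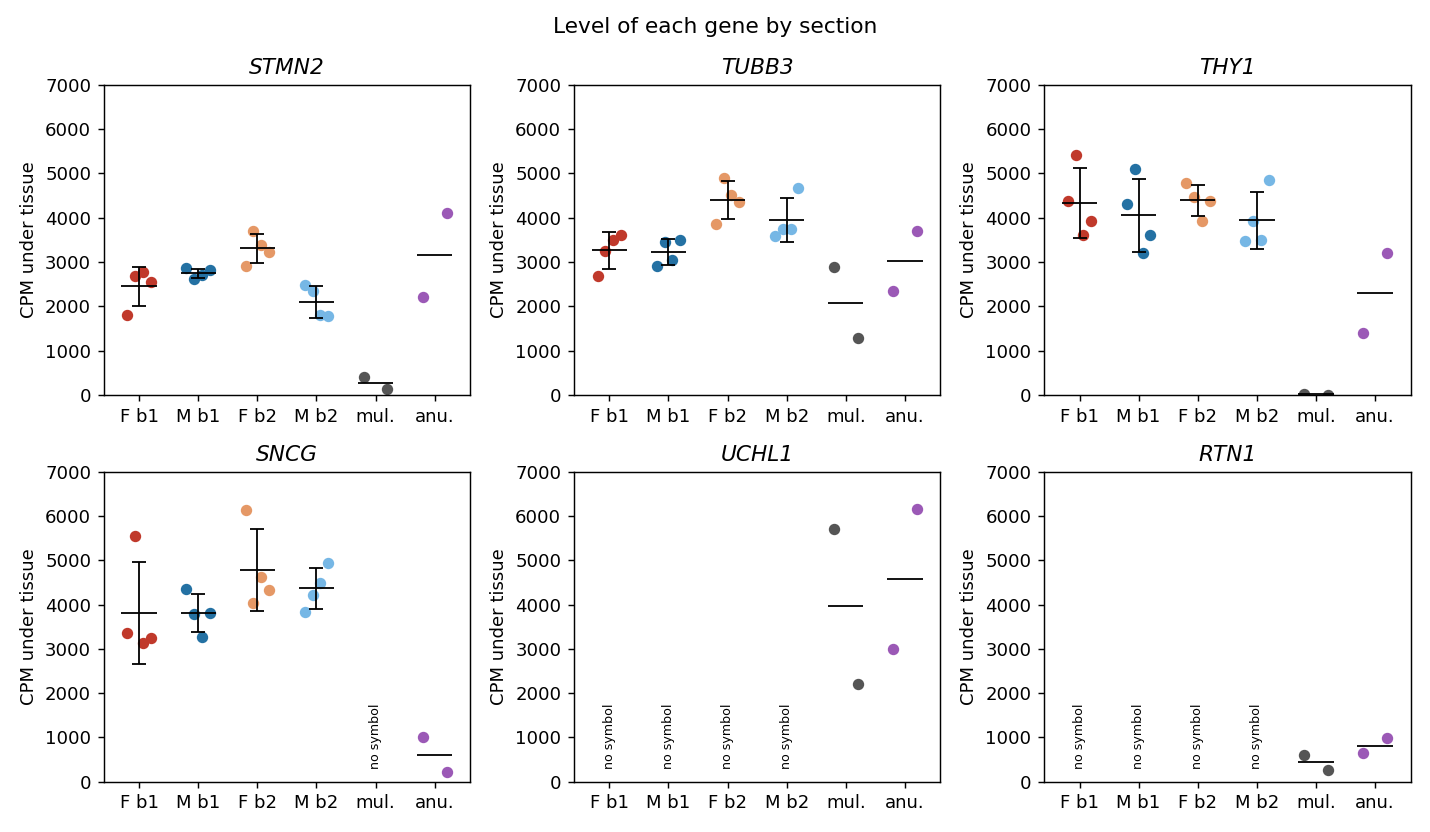
CPM over all UMIs under tissue for each gene, 1 point a section, by specimen (F and M, female and male; b1 and b2, batches; mul. and anu., the labels M. mulatta and P. anubis). Lines are means and bars the SD over 4 sections; STMN2 in the batch 2 female (2921 to 3696) lies above the batch 2 male (1784 to 2493).

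Sex and batch were then tested on counts summed per specimen. With edgeR's quasi-likelihood test and Benjamini-Hochberg adjustment, 0 of the 4 genes passed for sex, and 0 passed at an unadjusted p under 0.05. Over all 12650 genes tested the sex comparison called 0 (0%), with 169 under an unadjusted p of 0.05, and DESeq2 and limma-voom also called 0. The female-minus-male estimates on the log2 scale were 0.34 (SE 0.34) for STMN2, 0.21 (SE 0.33) for TUBB3, 0.22 (SE 0.34) for THY1 and 0.15 (SE 0.34) for SNCG. With 1 residual degree of freedom each SE was about as large as its estimate or larger, so similar levels in the sexes are not shown.

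The batch comparison called 364 of 12650 genes (2.88%) but 0 of the 4 members (0 at an unadjusted p under 0.05, and 0 by DESeq2 or limma-voom). The largest estimate, batch 2 minus batch 1, was 0.42 (SE 0.33) for TUBB3 with an adjusted p of 0.554 from edgeR. When sections were treated as samples, TUBB3 was called at 0.47 and SNCG at 0.37 in the same direction, but this setting called 40.7% of all genes and counts sections of a specimen as if they were animals. TMM scaling, edgeR's correction for library composition, moved the median of all genes by 0.11 in the batch comparison, and without it THY1 changed from 0.10 to -0.02. Among 45 related neuronal and family genes tested beside the members, 0 were called for sex and 1 for batch, the beta-tubulin TUBB6 (3.18 higher in batch 2, SE 0.44, edgeR adjusted p = 0.0126).

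The second question was in which spots these genes lay. In each section the 25% of spots with the largest share of NEFL, NEFH and PRPH transcripts were compared with the other spots, leaving the members out of the ranking. NEFM was not named in M. fascicularis. PRPH encodes the intermediate filament peripherin, so neurofilament-rich and neurofilament share below refer to NEFL, NEFH and PRPH together. The rich class held 4648 spots and the other class 13946. STMN2 and TUBB3 were higher in the neurofilament-rich spots, whereas THY1 and SNCG did not pass the test. STMN2 rose from 2384 to 2960 CPM in the batch 1 female, from 2556 to 3041 in the batch 1 male, from 2899 to 3873 in the batch 2 female and from 2243 to 2533 in the batch 2 male. TUBB3 rose from 3044 to 3925, 3026 to 3688, 4227 to 4743 and 3770 to 4009 in the same order. Both were thus higher in 4 of 4 specimens.

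The estimated log2 change was 0.37 (SE 0.06, edgeR adjusted p = 0.000136) for STMN2 and 0.31 (SE 0.07, edgeR adjusted p = 0.00131) for TUBB3. Of 12041 genes tested, 41.5% were called in either direction and 20.4% were called higher, so 2 of 4 members called higher is read against a contrast that moved much of the transcriptome. SNCG gave 0.01 (SE 0.06, edgeR adjusted p = 0.925). THY1 gave -0.10 (SE 0.06, edgeR adjusted p = 0.2), with 3717 against 4559 CPM in the batch 1 female and 3857 against 3878 in the batch 2 male as the widest and narrowest gaps. THY1 was called lower, at -0.18 (adjusted p = 0.0172), when edgeR used library totals without TMM, which was tried after seeing the data. It was also called lower with at least 1000 UMIs per spot (-0.16) and without the batch 2 male (-0.14). Without a term for the specimen neither STMN2 (0.38) nor TUBB3 (0.29) was called. TUBB3 (0.19) was not called either when other neuronal genes ranked the spots. Neurofilament-rich spots were deeper, with a median of 4153 UMIs against 1238 over sections. Thinning drew each spot with at least 500 UMIs down to 500 and left out shallower spots. After it STMN2 and TUBB3 were still the 2 members called.

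Levels were also followed along the neurofilament share, as a description. When spots were divided into 4 equal bins by neurofilament share, STMN2 was lower at each step from the highest to the lowest bin in 13 of 15 sections and TUBB3 in 11. THY1 did so in 0 and SNCG in 1. Median levels from the highest to the lowest bin were 3054, 2689, 2595 and 1615 CPM for STMN2 and 4089, 4581, 4428 and 2615 for THY1. THY1 and SNCG therefore had their highest medians in the middle bins, and all 4 genes had their lowest median where the neurofilament share was lowest. Spots outside the neurofilament-rich class were also split into myelin-rich and remaining spots. Spots rich in both myelin and neurofilament transcripts were thus left out of the myelin-rich class, and the ratios do not cover them. Against the remaining spots, these myelin-rich spots held lower levels of STMN2, TUBB3 and SNCG in 15 of 15 sections. The median ratios were 0.49, 0.65 and 0.53 in that order. THY1 was lower in 14 of 15 (median ratio 0.55) and stood at 1.09 in section 4 of the batch 2 male.

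**Figure D2:**
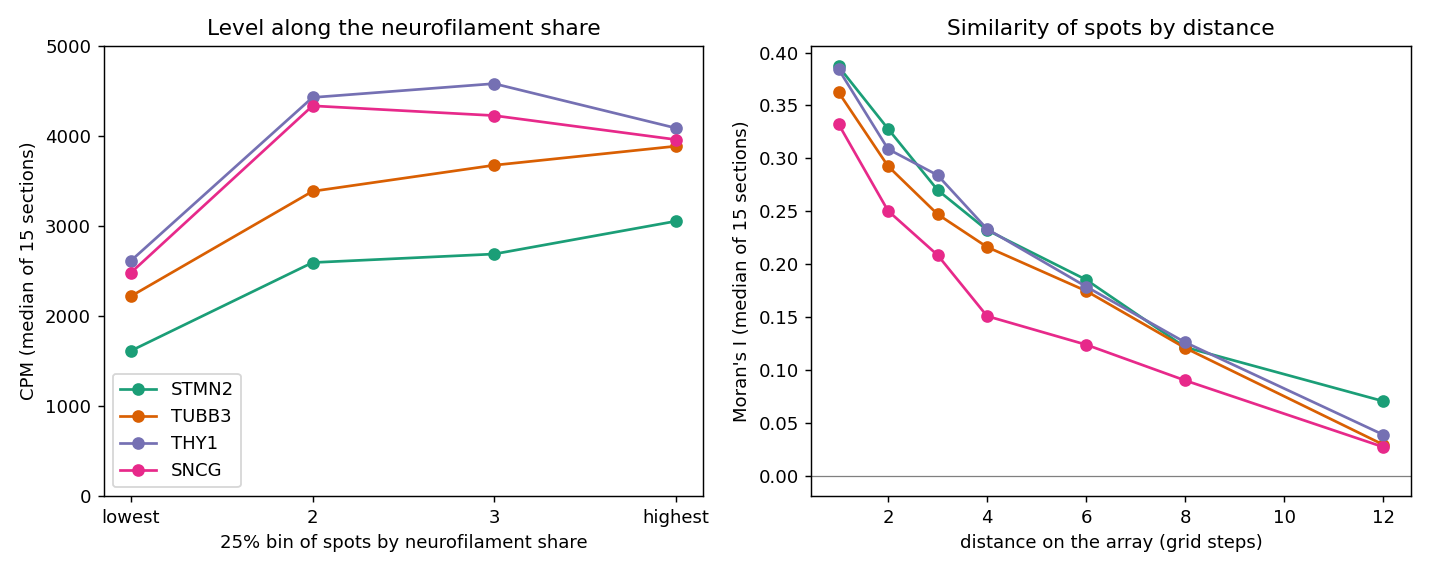
Left, median CPM over 15 M. fascicularis sections in 4 equal bins of spots by neurofilament share, where the lowest and highest bins hold 1615 and 3054 for STMN2 and 2615 and 4089 for THY1, whose middle bins reach 4581. Right, median Moran's I of log values against distance on the array in grid steps, which falls from 0.39 at 1 step to 0.07 at 12 steps for STMN2.

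Spots marked by PVALB, a calcium-binding protein of proprioceptors, were also set against spots marked by SCN10A and SCN11A (1237 and 1195 spots). THY1 was lower in the PVALB spots of 4 of 4 specimens, at 3030 against 5975 CPM in the batch 1 female, 2984 against 5546 in the batch 1 male, 3329 against 5843 in the batch 2 female and 3127 against 4065 in the batch 2 male. The estimate was -0.70 (SE 0.08, edgeR adjusted p = 6.97e-09), and it stayed between -0.84 and -0.62 when each specimen was left out. TUBB3 was also called lower at -0.17 (SE 0.06, edgeR adjusted p = 0.0325), but not by DESeq2 (-0.17), after thinning (-0.19), with 5% of spots (-0.21), without the specimen term (-0.18), or without the batch 1 female (-0.19), the batch 2 female (-0.16) or the batch 1 male (-0.18). STMN2 (0.02, SE 0.06) and SNCG (-0.07, SE 0.07) did not pass, and SNCG was called lower (-0.16) only without the batch 2 male. This contrast called 33.9% of 10269 genes, 16.3% of them lower in PVALB spots, beside the 2 of 4 members. The batch 2 male gave the smallest THY1 difference, and the difference between batches in this contrast was not called for THY1 (0.36, SE 0.12, edgeR adjusted p = 0.235) or any other member.

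**Figure D3:**
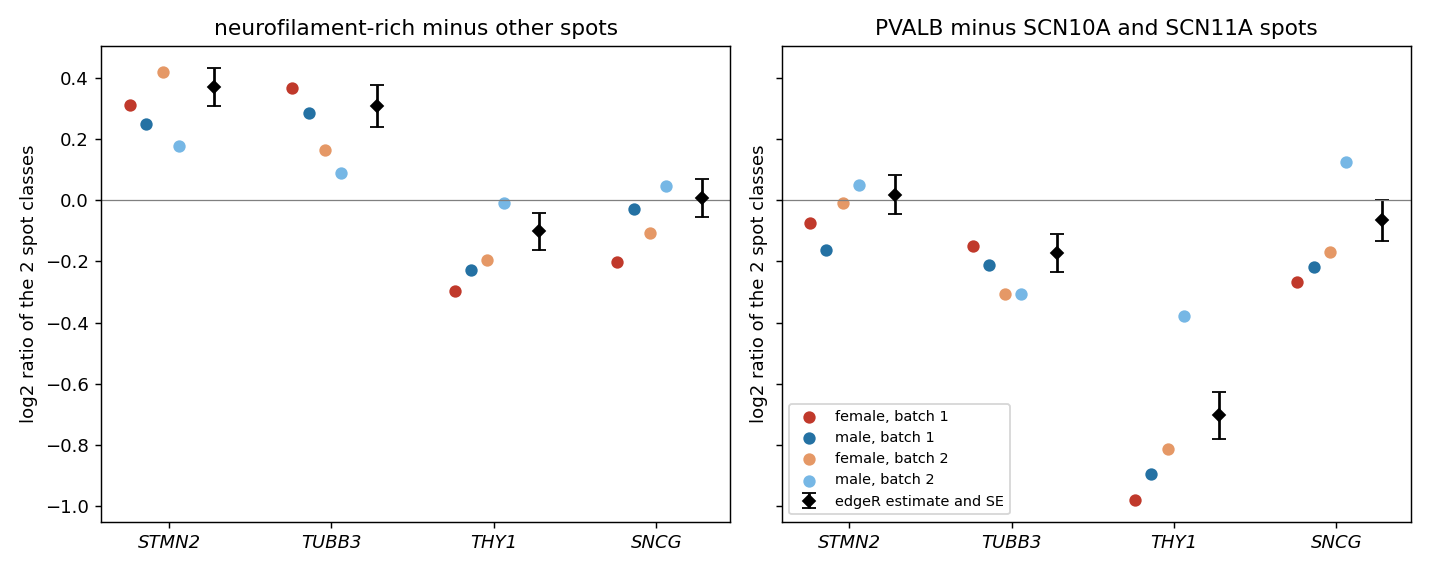
Log2 ratio of CPM between 2 spot classes in each specimen (points) with edgeR's estimate and its SE (diamonds), which includes TMM scaling and so sits 0.06 to 0.09 above the raw ratios for the median gene. STMN2 and TUBB3 lie above 0 on the left in all 4 specimens, and THY1 lies below 0 on the right in all 4.

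Relatives of the members and other neuronal genes did not move as a block in either contrast. In neurofilament-rich spots 25 of 41 such genes were higher, 11 were lower and 5 did not pass (median log2 change 0.31, against -0.03 over all genes tested), leaving out the genes that ranked the spots. Among stathmins, STMN3 rose (0.70) while STMN4 (-0.71) and STMN1 (-0.76) fell. Among tubulins 4 of 7 rose, led by the alpha-tubulins TUBA8 (1.30) and TUBA4A (1.15), and TUBB fell (-0.24). All 3 reticulons rose, RTN3 by 0.71, RTN4 by 0.60 and RTN2 by 0.19. Of the ubiquitin hydrolases UCHL5 (0.31) and BAP1 (0.22) rose and UCHL3 fell (-0.56). Of 23 other neuronal genes 14 rose and 6 fell, and the largest changes were in VSNL1 (1.87), a neuronal calcium sensor, NSG1 (1.74), CHGA (1.46), a granule protein, and MAP2 (1.24), a dendritic microtubule protein.

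In PVALB spots against SCN10A and SCN11A spots 22 of 44 relatives were higher, 12 were lower and 10 did not pass (median 0.28, against -0.02 over all genes tested). SNCB (3.03), which encodes beta-synuclein, TUBA8 (2.80) and VSNL1 (2.77) had the largest changes of these lists, all toward higher levels in PVALB spots. STMN1 (-1.35), STMN4 (-1.25) and PRPH (-0.94), the intermediate filament peripherin, were lower in the PVALB spots, as THY1 was.

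The third question was whether the genes were spatially patterned. Moran's I, which is near 0 for a random layout and approaches 1 where neighbouring spots are alike, was read from the authors' deposited table for each section. In these tables all 4 genes had an adjusted p under 0.05 in 16 of 16 M. fascicularis sections, where 16.2% of all genes passed over the sections together and between 5.42% and 40.6% within a section. The deposited score had a median of 0.30 for STMN2 (range 0.04 to 0.61), 0.27 for TUBB3 (0.08 to 0.61), 0.32 for THY1 (0.10 to 0.60) and 0.24 for SNCG (0.09 to 0.55), while the median gene of a section scored between -0.0012 and 0.0168. THY1 ranked between 1 and 42, STMN2 between 6 and 302, TUBB3 between 3 and 166 and SNCG between 6 and 61 among the 11984 to 14510 genes of a section. The other genes were not matched to the members in abundance, so these calls and ranks cannot tell stronger patterning from higher counts. In the authors' deposited table the scores were highest for all 4 genes in section 2 of the batch 1 female and lowest in section 4 of the batch 2 male.

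Those extremes also differed in depth. Section 2 of the batch 1 female had a median of 5145 UMIs per spot, the most of the M. fascicularis sections with a matrix. Section 4 of the batch 2 male had 446 and the smallest total. Sections 2 and 3 of the batch 2 female had still lower medians, 420 and 398, with deposited STMN2 scores of 0.20 and 0.25 against 0.04 there. The part of depth in the deposited scores was not tested. Scores were recomputed from the matrices with the 6 nearest spots and log values, over all spots under tissue. The median score was 0.39 for STMN2, 0.36 for TUBB3, 0.38 for THY1 and 0.33 for SNCG. Over spots with at least 500 UMIs, thinned to 500, the medians were 0.11, 0.09, 0.13 and 0.10 in that order. STMN2 then ranged from -0.05 to 0.22. Genes outside the members were not scored after thinning. Thinning changed both the depth and the spots used, so their parts in the fall cannot be told apart. Similarity declined with distance: the median score at 4 grid steps was 0.23 for STMN2 and 0.15 for SNCG, and at 12 steps it was 0.07 and 0.03.

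**Figure D4:**
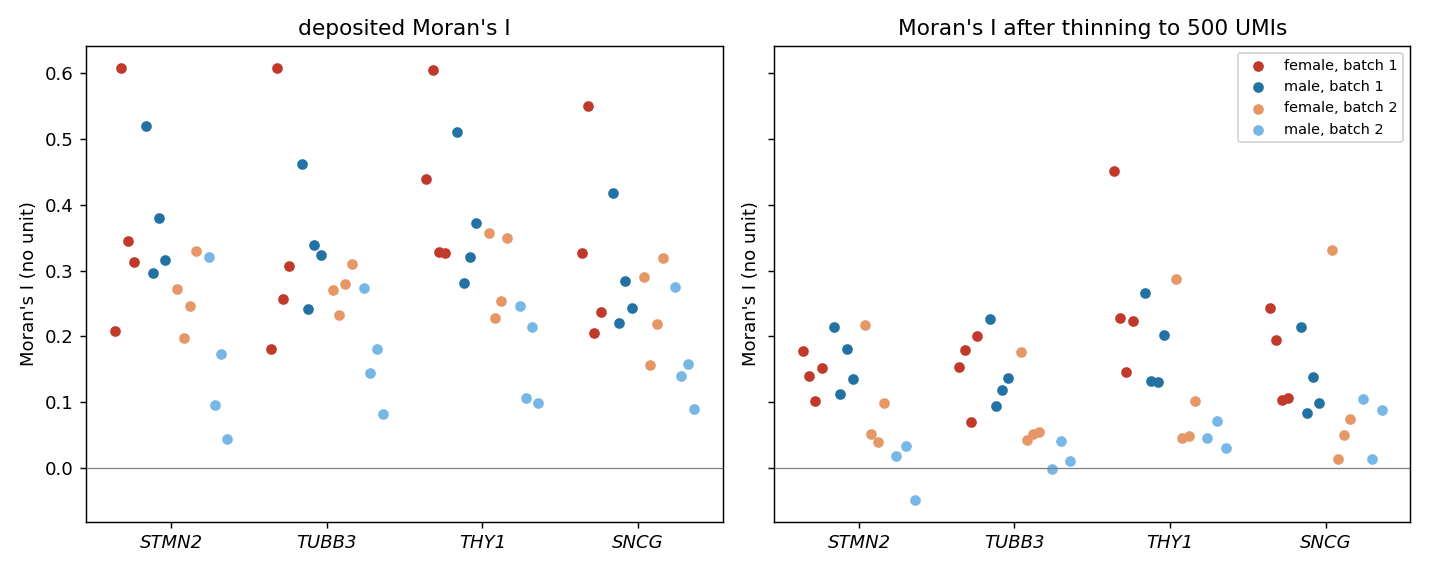
Moran's I of the 4 genes in each M. fascicularis section, as deposited (left, 16 sections) and recomputed after thinning (right, 15 sections). Thinning drew spots with at least 500 UMIs down to 500 and left out the others. Deposited scores run from 0.04 to 0.61, and the thinned ones are lower, with medians between 0.09 and 0.13.

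Spots rich in one gene tended to be rich in the others. Over spots with at least 200 UMIs, the median Spearman correlation of log values over 15 sections was 0.44 for TUBB3 and THY1, 0.42 for THY1 and SNCG, 0.38 for STMN2 and TUBB3, 0.37 for STMN2 and THY1, 0.34 for STMN2 and SNCG and 0.33 for TUBB3 and SNCG. Between 509 and 1806 spots entered per section, and spots share the library, the depth and the neuron content. At this scale the median of 1569 other genes already correlated at 0.22 to 0.25 with each member. After thinning to 500 UMIs that median was 0.01 for each member and the 6 pairs had medians between 0.11 and 0.20. The pairs thus stood above the median of the other genes on both scales. Those genes were not matched to the members in abundance, so this comparison cannot tell closer coupling from higher counts. Raw UMI counts, which carry the depth of the spot, gave medians of 0.85 to 0.89.

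Coupling was weakest in the batch 2 male. Its 3 sections gave means between 0.10 (STMN2 and SNCG) and 0.18 (TUBB3 and THY1), and section 4 had values from -0.04 to 0.11 over the pairs. Section 2 of the batch 1 female gave the highest value of 5 of the 6 pairs, up to 0.64 for THY1 and SNCG. Over all spots under tissue, the 3 batch 2 male sections had medians of 446 to 1671 UMIs. The batch 2 female sections, whose correlations ran from 0.17 to 0.52 (median 0.41), had 398 to 733. In the neurofilament-rich spots the medians were 1020.5 to 2084.5 UMIs in the male sections and 3860 to 4692 in the female sections. The part of depth in the weaker coupling was not tested. Over spots with at least 1000 UMIs the correlations ran from -0.06 to 0.60 (median 0.32) in the batch 2 female and from -0.10 to 0.38 (median 0.07) in the batch 2 male. Without the batch 2 male the median over all pairs and sections was 0.42 against 0.37 with it.

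**Figure D5:**
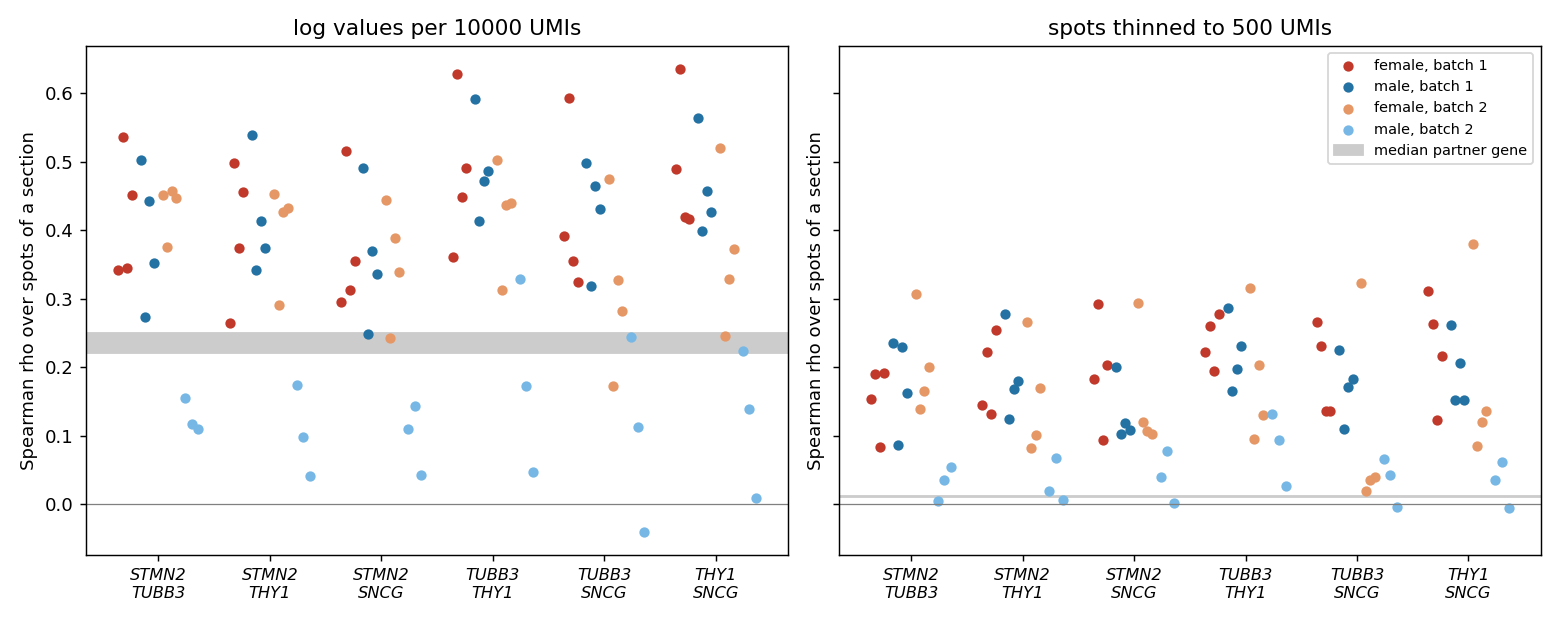
Spearman correlation over the spots of a section for each pair of genes, 1 point a section, on log values per 10000 UMIs (left) and after thinning to 500 UMIs (right). The grey band is the median over 1569 partner genes (0.22 to 0.25 left, 0.01 right), and the batch 2 male has the lowest points.

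The genes whose spot pattern was closest to each member were ranked by their median correlation over the 15 sections, among 1573 genes detected in at least 10% of spots of every section. For STMN2 on log values these were SNAP25 (0.42), a synaptic vesicle fusion protein, EPB41L3 (0.41), ATP1B1 (0.40), a sodium pump subunit, DEPDC5 (0.40) and TSPAN7 (0.40), all ahead of the other members on that scale. For TUBB3 they were PRPH (0.43), the alpha-tubulin TUBA1B (0.36), NDRG4 (0.36), FBXO2 (0.36) and TPPP3 (0.35), but THY1 (0.44) was closer than any of them. For THY1 they were PRPH (0.51), HTR3A (0.44), a serotonin-gated channel, OLFM1 (0.43), SCG3 (0.42), a secretory granule protein, and CALCB (0.40), a calcitonin gene-related peptide. For SNCG they were PRPH (0.38), OLFM1 (0.38), PRKAR1B (0.36), ACHE (0.35), acetylcholinesterase, and FKBP1B (0.35), and THY1 (0.42) was again closer. These lists depended on the scale. On thinned spots PRPH was among the nearest 5 of all 4 genes. Of the other partners listed, only TUBA1B for TUBB3 and OLFM1 for THY1 and SNCG were still among the nearest 5. None of the 5 named for STMN2 was, and TUBB3 then ranked 3 among the partners of STMN2, against 21 on log values. THY1 was still the closest partner of TUBB3 and of SNCG. At the other end, EEF1A1, a translation factor, and APOD, a lipid carrier of fibroblasts and glia, were among the 3 lowest partners of each member, from -0.41 to -0.29.

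Set against cell type lists, all 4 genes followed the neuronal list and ran against connective tissue. The median correlation with summed neuronal markers was 0.46 for STMN2, 0.46 for TUBB3, 0.34 for SNCG and 0.32 for THY1. On this log scale the median single partner gene already gave 0.22 to 0.25, although single genes are not matched to summed lists. With fibroblast markers it lay between -0.49 (STMN2) and -0.41 (TUBB3), and with myelinating Schwann cell markers between -0.37 (SNCG) and -0.28 (STMN2). Satellite glia, which wrap the neuron bodies, gave 0.12 to 0.15, and -0.03 to -0.01 after thinning.

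The transcripts were spread over most of the tissue. Among spots with at least 200 UMIs, the median section had a UMI of STMN2 in 75.0% of spots, of TUBB3 in 83.1%, of THY1 in 84.5% and of SNCG in 84.9%. Over spots with at least 500 UMIs, thinned to 500, these shares were 61.8%, 74.2%, 75.1% and 80.4%. The single richest spot of a section held between 35 and 278 UMIs of a member, and the richest 10% of spots held a median of 44.1% (SNCG) to 45.5% (TUBB3) of the UMIs, against 36.3% for all genes together.

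Spots outside the tissue held these genes too. Off-tissue levels in CPM were 0.81 ± 0.15 times the tissue level for STMN2, 0.88 ± 0.15 for TUBB3, 0.75 ± 0.16 for THY1 and 0.75 ± 0.12 for SNCG (SD, n = 15 sections), with 1.92% to 17.9% of a section's UMIs off tissue. A UMI of a member in a spot is thus not by itself a sign of a neuron there. The off-tissue ratio was lowest in the batch 2 female, at 0.56 for THY1, and highest in the batch 2 male, at 0.98 for both STMN2 and TUBB3.

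Levels in the other labelled species were set beside these as CPM over the UMIs of 13089 shared gene symbols, without a test, since each label covered a single title code. In M. fascicularis the means on this scale were 4162 ± 962 for STMN2, 5816 ± 1122 for TUBB3, 6531 ± 1008 for THY1 and 6570 ± 1429 for SNCG (SD, n = 16). The sections labelled P. anubis gave 4028 and 7604 for STMN2, 4278 and 6845 for TUBB3, 2535 and 5932 for THY1 and 1829 and 405 for SNCG. For STMN2 and TUBB3 the deep section was above the M. fascicularis mean and the shallow section below it. STMN2 in the deep section was above every M. fascicularis section (highest 5993). THY1 in the shallow section was below every M. fascicularis section (lowest 4942). SNCG was below every M. fascicularis section in both the deep and the shallow section, and it was the one member that was lower in the deeper section. How many of the 13089 shared symbols also lay outside the M. fascicularis range was not counted. These positions are therefore not shown to be particular to the members.

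UCHL1, the ubiquitin hydrolase, had the most UMIs of the listed members in all 4 sections where it was named, at 5453 and 11389 shared-symbol CPM in the sections labelled P. anubis and 11201 and 4310 in those labelled M. mulatta. RTN1 stood at 1165 and 1813 in the former and 1194 and 517 in the latter. TUBB3 in the sections labelled M. mulatta was 5642 and 2528, and STMN2 772 and 251. THY1 rested on 3 and 2 UMIs there (31 and 15 CPM), and 0.65% and 0.61% of 155 and 165 spots had a UMI of it (95% Clopper-Pearson intervals 0.02% to 3.54% and 0.02% to 3.33%, covering counting error only). For UCHL1, TUBB3 and STMN2 the CPM in these 2 sections were higher outside the tissue than under it, by 1.36 to 2.47 times, and the median spot held 62 and 61 UMIs, so tissue and background cannot be told apart at this depth.

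Spatial scores followed the same split. In the authors' deposited table UCHL1 (0.11 and 0.08) and TUBB3 (0.04 and 0.08) passed in both sections labelled M. mulatta, where 3.62% and 2.53% of genes passed, while STMN2 and THY1 passed in neither and RTN1 in section 2. In the authors' deposited table the deep section labelled P. anubis gave 0.39 for STMN2, 0.39 for THY1, 0.35 for TUBB3, 0.32 for UCHL1, 0.23 for RTN1 and 0.12 for SNCG, and the shallow one 0.02 to 0.06. All 6 passed in both of these, beside 22.6% and 3.31% of genes. Over spots, UCHL1 correlated with STMN2 at 0.53 and with TUBB3 at 0.44 in the deep section (2532 spots) and at 0.09 and 0.16 in the shallow one (787 spots). RTN1 and UCHL1 correlated at 0.43 and 0.11 in the same sections, and SNCG and UCHL1 at 0.39 and 0.10.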

How the data were processed

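UMI counts per gene and spot were deposited by the authors as Space Ranger matrices (version 2.0.0 in 12 sections and 2.1.0 in 7, per the file headers), with per-section tables holding Moran's I as a score, its p-value and adjusted p-value; the scale behind that score is not given in the sources used here. The submitters' processing notes name Mmul_10 for all samples, although the feature identifiers differ by label. Members and lists were chosen with earlier results of these data known. Counts under tissue were summed per specimen or spot class and tested with edgeR 4.0.16 (quasi-likelihood, TMM, filterByExpr, R 4.3.3), called at an adjusted p under 0.05, with DESeq2 1.42.0 and limma 3.58.1 as alternatives; scripts were tested on simulated data. Spots needed at least 200 UMIs. PVALB and SCN10A or SCN11A spots were the top 10% of a section with at least 2 UMIs of the gene or genes. Spots were not merged, no doublet caller was run and no gene was filtered from the correlations beyond the 10% detection rule. Members were always named; partner genes were the 5 with the highest median correlation, and family genes named were up to 4 per list with the largest change past the threshold. A gene of these lists is not reported here by name. Nothing in the labels says that sections of a code came from separate animals. The sex and batch p-values therefore rest on 4 specimens with 1 residual degree of freedom. They do not measure the spread between animals of a group. In the spot-class contrasts the specimen was a block, so those p-values measure how evenly the class difference recurred within the 4 specimens.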

Additional observations from a re-analysis of the deposited data

Results flagged for a closer look

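Of 32 sets of 4 sections examined (the level and the deposited Moran's I of 4 genes in 4 specimens), 2 had a section far from the other three, and chance alone gives about 1 in 20. SNCG stood at 5540 CPM in section 2 of the batch 1 female, a gap of 0.908 of the whole range. That section had the most UMIs per spot of the M. fascicularis sections and 596 spots under tissue. TUBB3 stood at 4679 CPM in section 4 of the batch 2 male, a gap of 0.844 of the range, in the section with the smallest total of its species.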

How the results depend on the processing

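For sex, 0 members were called under all 25 alternatives run. For batch the count was 0 except with sections as samples, with 2 called without a replicate block and 2 with section number as a replicate block; leaving out each section gave 0 to 0. Section numbers did not pair the specimens: same-numbered sections correlated above 0.1 in every pair for only 1 of 6 specimen pairs, and in that one 0 of 4 matched their own number best. Neurofilament-rich spots called 2 members; this became 0 without the specimen term and 1 with other ranking genes, and leaving out a specimen gave 2 to 3. PVALB spots called 2; this became 1 with DESeq2, without the specimen term, after thinning or with 5% of spots, and leaving out a specimen gave 1 to 3. No called value changed sign. Counts over all genes moved further: sex 67 without a filter, 1 thinned and 8 or 5 with sections as samples (0 in the main fit); batch 1279, 916 and 4345 or 4448 under the same settings (364), and 115, 120, 564, 674 and 942 without section 1 or 2 of the batch 2 male, section 1 of the batch 2 female, or section 1 or 4 of the batch 1 female; neurofilament-rich spots 235 without the specimen term and 1745 thinned (4995); PVALB spots 2071 with DESeq2, 866 without the term and 630 thinned (3482). The median Moran's I over members and sections (0.28) was 0.48 on raw counts and 0.11 thinned, with 0.27 to 0.28 when each section was left out. The median spot correlation (0.37) was 0.87 on raw counts and 0.15 thinned, with 0.37 to 0.39 on leaving out each section. On thinning, shares of spots with a UMI were 61.8% for STMN2, 74.2% for TUBB3 and 75.1% for THY1. With all features as the denominator M. fascicularis levels were 2652 for STMN2, 3710 for TUBB3, 4180 for THY1 and 4193 for SNCG, and for the label P. anubis 3161 for STMN2, 3025 for TUBB3 and 810 for RTN1. The causes of these moves were not tested. Thinned values near 1 UMI per spot, and 155 to 165 usable spots in the sections labelled M. mulatta, limit what depth can resolve.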
